A study of Mus musculus with 3 samples.

Results

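The 10 genes described here are Toll-like receptor genes (Tlr1, Tlr2, Tlr3, Tlr4, Tlr7, Tlr8, Tlr9 and Tlr13) and 2 genes of their accessory receptors, Cd14 and Cd180. They were chosen by name, as 10 of the 32886 gene columns of a single-cell count table, and are described in all 23 clusters and in each kidney compartment. The cells were CD45+ immune cells from 3 dissected regions of the kidney, the cortex, the OM (outer medulla) and the IM (inner medulla). The donors were untouched wt male C57BL/6J mice aged 10 weeks, and no group carried a modified allele or an agent. The cells of 1 compartment from 1 of the facilities Aachen, Bonn and Hamburg were treated as 1 library, which gave 9 libraries and 3 facilities as replicates. The sources used here do not state how many mice entered a library, so the spread between facilities may hold technical as well as biological differences.

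Toll-like receptors are membrane receptors that recognise microbial molecules and damaged-cell products, and they signal through the adaptor MyD88 or, for TLR3 and in part for TLR4, through TRIF. TLR1, TLR2 and TLR4 act at the cell surface, where CD14 hands lipopolysaccharide and lipoproteins to them. CD180 is a related surface receptor of B cells and phagocytes that pairs with MD-1, the product of Ly86. TLR3, TLR7, TLR8, TLR9 and TLR13 sit in endosomes and bind nucleic acids, and they reach that compartment with the chaperone UNC93B1. In the kidney, resident macrophages survey the interstitium between the tubules.

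By the GENCODE annotation of mm10, the X chromosome holds Tlr7 (chrX:167304929-167330558, minus strand), its neighbour Tlr8 (chrX:167242696-167264329, minus strand) and Tlr13 (chrX:106143204-106160493, plus strand). Tlr1 lies at chr5:64924679-64933563 on the minus strand, Tlr2 at chr3:83836272-83841767 on the minus strand and Tlr4 at chr4:66827584-66930284 on the plus strand. Tlr9 lies at chr9:106222598-106226883 on the plus strand. Tlr3 (chr8:45395665-45411080, minus strand) and Cd180 (chr13:102693558-102739629, plus strand) overlap Gm45542 and Mast4, respectively, on the opposite strand, and none of these members overlaps another gene on its own strand.

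The stretch upstream of the gene start is shown for the 4 members in which a motif search found a PU box (Tlr1, Tlr8, Tlr9 and Tlr13) and, beside them, for Tlr3, which was found mainly in conventional dendritic cells of type 1 (cDC1) and whose window held none of the motifs. The sequences are RefSeq windows of 250 bases (GRCm38.p6), printed 5′ to 3′ on the strand of the gene and ending just before the start that RefSeq annotates. The RefSeq starts are not always those of the GENCODE coordinates above, since the Tlr3 window lies wholly within the GENCODE gene and the windows of Tlr13 and Tlr1 run past its start. Capitals mark 2 motifs on either strand, the PU box GAGGAA (read as TTCCTC on the other strand), a core of sites for the myeloid factor PU.1, and the AP-1 core TGANTCA.
Tlr1, chr5:64933559-64933808, minus strand: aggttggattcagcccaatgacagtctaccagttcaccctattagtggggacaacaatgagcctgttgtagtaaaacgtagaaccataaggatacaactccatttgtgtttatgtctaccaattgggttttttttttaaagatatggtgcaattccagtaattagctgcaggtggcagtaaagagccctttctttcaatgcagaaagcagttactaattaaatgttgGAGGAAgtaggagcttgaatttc
Tlr13, chrX:106143025-106143274, plus strand: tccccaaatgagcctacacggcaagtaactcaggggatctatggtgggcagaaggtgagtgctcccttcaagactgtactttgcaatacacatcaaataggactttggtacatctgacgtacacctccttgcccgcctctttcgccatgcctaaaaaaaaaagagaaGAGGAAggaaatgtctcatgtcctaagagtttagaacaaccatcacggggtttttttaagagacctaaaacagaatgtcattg
Tlr8, chrX:167264330-167264579, minus strand: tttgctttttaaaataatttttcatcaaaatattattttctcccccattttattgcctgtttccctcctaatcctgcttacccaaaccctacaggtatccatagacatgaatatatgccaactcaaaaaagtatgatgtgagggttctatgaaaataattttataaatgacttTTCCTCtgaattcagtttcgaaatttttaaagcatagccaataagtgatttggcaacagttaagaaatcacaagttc
Tlr9, chr9:106222348-106222597, plus strand: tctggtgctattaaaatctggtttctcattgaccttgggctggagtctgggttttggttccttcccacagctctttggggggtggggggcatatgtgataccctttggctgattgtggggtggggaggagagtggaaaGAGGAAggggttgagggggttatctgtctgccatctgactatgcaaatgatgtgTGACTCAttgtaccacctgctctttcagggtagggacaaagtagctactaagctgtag
Tlr3, chr8:45410381-45410630, minus strand: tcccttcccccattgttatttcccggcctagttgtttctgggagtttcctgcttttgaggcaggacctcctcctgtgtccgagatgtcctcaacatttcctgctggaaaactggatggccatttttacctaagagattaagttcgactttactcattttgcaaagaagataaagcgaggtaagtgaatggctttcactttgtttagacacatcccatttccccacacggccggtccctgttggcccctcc
Windows were found for 7 of the 10 members, with 2 starts each for Tlr1 and Cd180. The PU box began 23 bases upstream of the start in the Tlr1 window shown, 83 bases upstream in Tlr13, 77 in Tlr8 and 112 in Tlr9, and the AP-1 core began 58 bases upstream in Tlr9. No PU box was found in the windows of Tlr2, Tlr3 and Cd180 or in the other Tlr1 window. Of all 32851 windows of this length, 23.3% held a PU box and 6.75% an AP-1 core. The ISRE core, a motif of interferon-responsive genes, was also searched, and was found in 2.98% of all windows and in no member. No 2 of the motifs overlapped in a member. These matches are letters in a window, with no binding measured.

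The table held 20266 cells, and the libraries held 621 to 3677 cells with a median of 744 to 3505 unique molecular identifiers (UMIs) per cell. Depth was lowest in Aachen, where the chemistry was version 2 of the 10x kit and the median cell held 887 UMIs, against 3290.5 in Bonn and 2944 in Hamburg, where it was version 3. Of 20042 barcode sequences, 219 occurred in 2 or more libraries, 28 of them within 1 facility. Each of the 21 clusters with a named cell type had a higher summed level of its own marker list than any cluster of another type, although for monocytes the margin was small (5873 against 5154 CPM in the plasmacytoid dendritic cells, pDC). Levels are given in CPM, the gene's share of the counts summed over the cells of a group, scaled to a total of 1000000, with the mean ± SD over facilities in which the group had 10 or more cells. They are compared between groups for 1 gene and never between genes. The clusters were built on the expression of these same cells, so differences between clusters are described without a test.

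**Figure D1:**
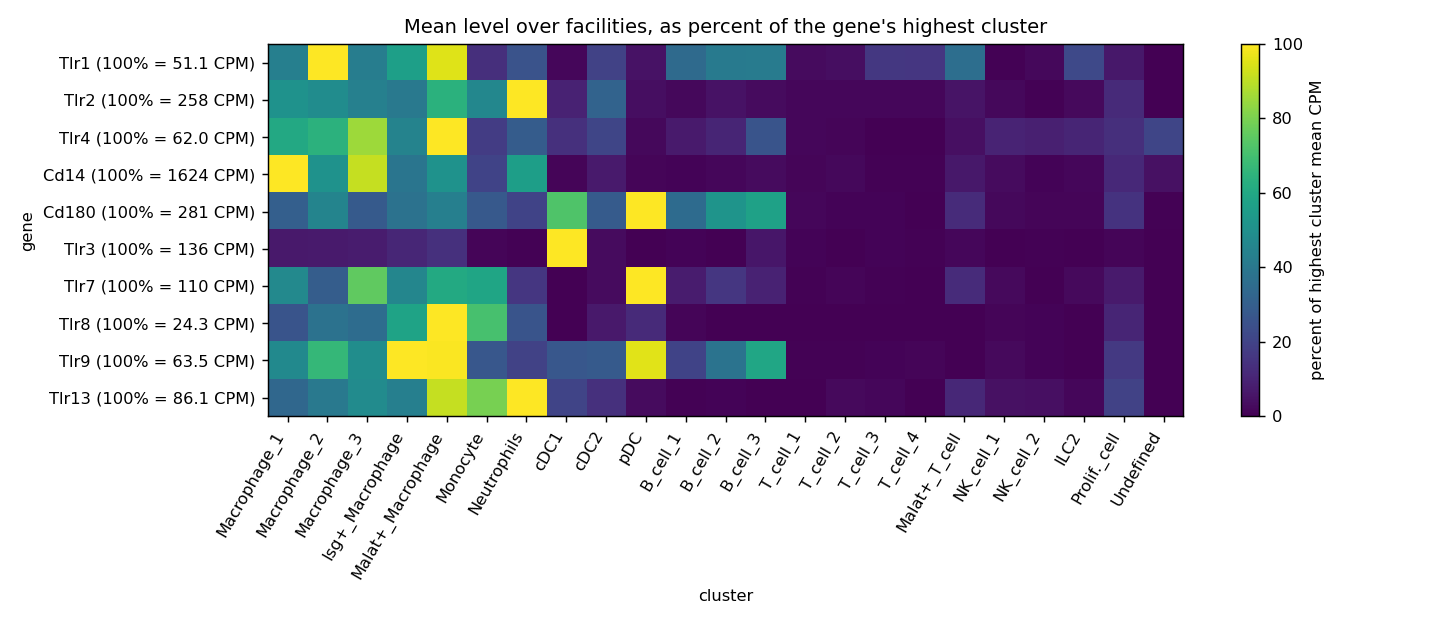
Mean CPM of each gene in each of 23 clusters, over up to 3 facilities, as percent of the gene's highest cluster (colour scale; rows are genes, columns are clusters). Tlr3 stands out in cDC1 alone, with 18.7 CPM in the next cluster against 136, and Cd14 in the macrophage clusters and neutrophils.

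Among the surface receptors, Cd14 was highest in Macrophage_1 with 1624 ± 445 CPM (1205 in Aachen, 2091 in Bonn and 1575 in Hamburg). Macrophage_3 followed with 1479 ± 272 CPM, a range that overlapped that of Macrophage_1. Neutrophils came next with 911 ± 246 CPM, below the range of Macrophage_3. Macrophage_2 (829 ± 51.0 CPM), Malat+_Macrophage (826 ± 188 CPM) and Isg+_Macrophage (633 ± 105 CPM) then followed with overlapping ranges. Monocytes held 204 CPM in Aachen, 123 in Bonn and 658 in Hamburg, so that Hamburg stood well above the other facilities. In cDC2 the level was 118 ± 62.0 CPM.

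The share of cells with a Cd14 UMI was compared at a matched depth, with each cell thinned to 500 UMIs and shallower cells left out. Among resident macrophages (Macrophage_1, Macrophage_2, Macrophage_3 and Isg+_Macrophage), it was 41.1% in Aachen (exact 95% binomial interval 39.3 to 42.9%), 45.6% in Bonn (42.9 to 48.3%) and 40.5% in Hamburg (37.4 to 43.6%). Without thinning the shares were 59.7, 92.4 and 84.8%, at median depths of 889, 4499 and 3298 UMIs. T cells, which should lack the gene, had thinned shares of 1.66% in Aachen, 0.125% in Bonn and 0.335% in Hamburg and unthinned shares of 4.42, 0.872 and 1.53%, at median depths of 973, 3274 and 3396 UMIs. The interval of a share covers counting error only. Thinning kept 2822 of the 3044 Aachen macrophages and all 1349 and 974 of Bonn and Hamburg. By summed level, Cd14 in T cells was 4.1 to 8.6% of that in resident macrophages of the same library in Aachen, and 0.129 to 0.575% in Bonn and Hamburg, so the background was higher in Aachen.

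Tlr2, which pairs with TLR1 or TLR6 to bind lipoproteins, was highest in neutrophils at 258 ± 148 CPM. That mean rests on 426 CPM from 6 UMIs in 25 Aachen cells, beside 147 CPM in Bonn and 202 CPM in Hamburg. Malat+_Macrophage (165 ± 133 CPM), Macrophage_1 (132 ± 37.9 CPM), Macrophage_2 (126 ± 43.9 CPM), monocytes (120 ± 78.3 CPM), Macrophage_3 (112 ± 54.5 CPM), Isg+_Macrophage (104 ± 38.0 CPM) and cDC2 (82.5 ± 38.7 CPM) followed, each overlapping its neighbour. Below cDC2 came a gap, and the next cluster, the proliferating cells, held 30.9 ± 20.2 CPM with no overlap. Tlr2 in resident macrophages was 87.3, 110 and 170 CPM in Aachen, Bonn and Hamburg, and in T cells 8.77, 1.84 and 3.08 CPM.

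Tlr1, the partner of TLR2 for triacylated lipoproteins, was highest in Macrophage_2 at 51.1 ± 36.2 CPM (17.3, 46.7 and 89.3 CPM in Aachen, Bonn and Hamburg) and in Malat+_Macrophage at 48.6 ± 29.8 CPM. Among resident macrophages Hamburg held 74 UMIs of Tlr1 in Macrophage_2 and 52 in Macrophage_1, which had 26.9 CPM there. B cells held 7.53, 27.1 and 19.9 CPM and monocytes 0, 13.7 and 7.01 CPM. In Bonn and Hamburg, cDC1 had no Tlr1 UMI, which allows up to 3.56 and 2.54 CPM, respectively.

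Tlr4, the receptor for lipopolysaccharide, was found mainly in the macrophage clusters. Malat+_Macrophage held 62.0 ± 48.0 CPM, Macrophage_3 53.0 ± 30.5, Macrophage_2 39.8 ± 14.3, Macrophage_1 37.3 ± 18.9 and Isg+_Macrophage 27.8 ± 20.4 CPM, and their ranges overlapped. Tlr4 was also detected in neutrophils, with means of 22.0 CPM over 2 cortex libraries, 27.9 in 1 OM library and 20.9 over 3 IM libraries. These rest on 23.7 UMIs in all, with none in the 25 Aachen neutrophils. In monocytes Tlr4 was 14.3 CPM in Bonn and 18.6 in Hamburg, and no UMI was found in the 89 Aachen monocytes, which allows up to 18 CPM. Ly96, whose product MD-2 holds lipopolysaccharide on TLR4, reached 90.4, 50.4 and 34.2 CPM in resident macrophages of Aachen, Bonn and Hamburg and 5.38, 8.11 and 3.99 CPM in B cells.

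Cd180 was detected in dendritic cells, B cells and macrophages. It was highest in pDC (400 CPM in Bonn and 162 in Hamburg, with too few cells in Aachen) and in cDC1 (203 ± 58.7 CPM, with 137, 226 and 248 CPM by facility), whose ranges overlapped. The B cell clusters B_cell_2 and B_cell_1 held 146 ± 44.5 and 98.5 ± 35.8 CPM. B_cell_3 held 48.3 CPM in 21 Bonn cells and 272 CPM in 225 Hamburg cells, and it was the highest cluster when Bonn was left out. The macrophage clusters held 79.4 ± 35.1 (Macrophage_3) to 126 ± 77.2 CPM (Macrophage_2), cDC2 80.5 ± 51.7 and monocytes 77.9 ± 43.1 CPM. T cells had 6.58, 3.18 and 1.41 CPM. Ly86, which codes for the CD180 partner MD-1, was detected in the same classes, with 1048 ± 238 CPM in resident macrophages, 481 ± 155 in cDC2, 368 ± 156 in B cells and 336 ± 61.2 CPM in cDC1.

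Of the endosomal receptors, Tlr3, a sensor of double-stranded RNA, was found mainly in 1 cluster. It reached 55.2 CPM in Aachen, 205 in Bonn and 149 in Hamburg in cDC1, the dendritic cells that take up dying cells and present their antigens to CD8 T cells. The next cluster, Malat+_Macrophage, held 3.89, 17.2 and 35.0 CPM, with no overlap of the ranges. The macrophage clusters Isg+_Macrophage, Macrophage_3, Macrophage_2 and Macrophage_1 held 14.4 ± 2.63, 10.5 ± 2.11, 10.0 ± 3.19 and 9.29 ± 2.48 CPM. The other conventional dendritic cells, cDC2, had 3.74 ± 3.35 CPM. The thinned share of cDC1 with a Tlr3 UMI was 2.20, 5.26 and 10.4% in Aachen, Bonn and Hamburg (from 2, 4 and 14 cells), beside 0.144, 0 and 0% of T cells. The unthinned share was 19.6, 78.9 and 57.8%, at median depths of 3469, 11738 and 9188 UMIs, beside 0.260, 0.125 and 0.0956% of T cells.

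Tlr7, a sensor of single-stranded RNA, was highest in pDC, with 101 CPM in Bonn and 119 in Hamburg. Macrophage_3 followed with 43.9, 104 and 101 CPM in Aachen, Bonn and Hamburg and overlapped pDC in range. Malat+_Macrophage (66.4 ± 45.3 CPM), monocytes (64.4 ± 50.6 CPM), Macrophage_1 (51.8 ± 30.9 CPM), Isg+_Macrophage (50.4 ± 29.8 CPM) and Macrophage_2 (32.5 ± 16.8 CPM) also overlapped their neighbours. In monocytes the Aachen value was 5.99 CPM from 1 UMI, against 95.6 CPM in Bonn and 91.4 in Hamburg. Both conventional dendritic types were near 0, with 3.24 ± 0.759 CPM in cDC2 and 0.396 ± 0.685 in cDC1, where Aachen and Hamburg had no UMI (up to 8.72 and 2.54 CPM). B cells held 9.38 ± 5.67 CPM.

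Tlr13, which recognises a stretch of bacterial ribosomal RNA, was found in neutrophils (86.1 ± 13.1 CPM), Malat+_Macrophage (78.5 ± 66.9 CPM) and monocytes (68.3 ± 39.8 CPM), and at 28.8 ± 15.2 to 41.4 ± 29.4 CPM in the 4 resident macrophage clusters. The Aachen neutrophil value rests on 1 UMI. B cells had no Tlr13 UMI in Aachen (up to 3.23 CPM).

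Tlr8 and Tlr9 were detected in Bonn and Hamburg and were nearly missing in Aachen. Over all cells, Tlr9, a sensor of unmethylated CpG DNA, had 8 UMIs in Aachen, 715 in Bonn and 469 in Hamburg, or 0.990, 26.7 and 19.3 CPM. Tlr8, another sensor of RNA, had 0 UMIs in Aachen, 148 in Bonn and 126 in Hamburg. For the 3044 resident macrophages of Aachen, whose 3230338 UMIs held no Tlr8, a count of 0 allows up to 0.929 CPM, below the 9.35 to 15.1 CPM of the other 6 macrophage libraries. The fall was not particular to these genes. Of 9501 genes with 5 CPM or more in both Bonn and Hamburg, 685 (7.21%) were below 10% of the lower of these levels in Aachen. The other members stood at 33.7% (Tlr13) to 145% (Cd14) of the mean of Bonn and Hamburg in Aachen, against 4.31% for Tlr9. Facility and chemistry cannot be told apart.

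**Figure D2:**
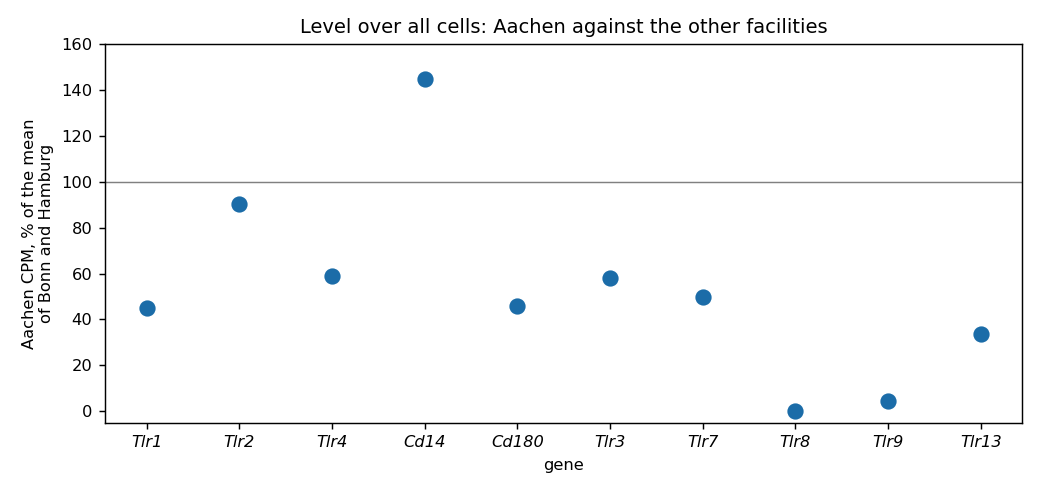
Level of each gene over all Aachen cells as percent of the mean of Bonn and Hamburg (y axis, from CPM of summed counts; 1 point for each gene; the line marks 100%). Tlr8 lies at 0 and Tlr9 at 4.31%, and Cd14 alone lies above 100%.

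In Bonn and Hamburg, Tlr9 was found in Isg+_Macrophage (99.8 and 90.8 CPM), Malat+_Macrophage (63.8 and 122 CPM), pDC (80.0 and 41.5 CPM), Macrophage_2 (52.7 and 73.3 CPM), Macrophage_1 (48.1 and 40.7 CPM) and Macrophage_3 (48.4 and 42.9 CPM). B cells held 21.8 and 22.1 CPM of Tlr9 in these facilities, cDC1 27.3 and 24.2, and T cells 1.0 and 0.46 CPM. Tlr8 was 29.4 and 43.3 CPM in Malat+_Macrophage and 28.5 and 23.0 CPM in monocytes, and lower in Macrophage_1 at 8.75 and 10.3 CPM. No Tlr8 UMI was found in cDC1 of any facility.

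The other 4 Toll-like receptor genes of the table were low over all cells. Tlr11, which binds profilin of protozoa, was highest in cDC1 with 11.6, 96.1 and 61.4 CPM in Aachen, Bonn and Hamburg, followed by cDC2 with 6.43, 17.0 and 9.45 CPM. Tlr12, its partner, was also highest in cDC1 (14.5, 60.5 and 50.2 CPM) and was detected in resident macrophages (6.50, 22.4 and 19.9 CPM). Tlr5 and Tlr6 reached at most 5.01 CPM over all cells of any facility.

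The genes whose pattern over clusters was most like that of a member were ranked by the lowest of the Pearson correlations of log2 (CPM + 10) within each facility, over the 21 clusters with 10 or more cells in every facility and among 4148 genes. The points share libraries and depth, and the correlations are descriptions. Cd14 was most like C5ar1 (r from 0.921 to 0.977), C1qb (0.892 to 0.969) and Csf1r (0.883 to 0.984). Tlr2 was most like Nfam1 (0.923 to 0.975), Ptafr and Pirb, and Tlr13 was most like Ptafr (0.864 to 0.935), Ccl6 and Nfam1. Tlr3 was most like Ppt1 (0.814 to 0.849), Naaa and Rab7b. Tlr7 was most like Fcgr1 (0.812 to 0.867), Ctsc and Tmcc3, and Tlr4 most like Gnaq (0.753 to 0.892), Cd81 and Tmem86a. Cd180 was most like 5031439G07Rik (0.855 to 0.935), March1 and Tifa. Likeness was weakest for Tlr1 (Mrc1, 0.645 to 0.785) and Tlr9 (Dab2, 0.664 to 0.741). Tlr8 has no value because it was constant at 0 in Aachen.

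The dissection of the kidney allowed the levels in medulla and cortex to be compared within 1 cell type. In resident macrophages, Tlr7 rose in the medulla and no other member passed the test. By the mean of OM and IM, Cd14 was higher than in the cortex in 3 of 3 facilities without passing the test. Of all genes in the fit, 28.4% lay on the same side of the cortex in 3 facilities. The fit covered 3044, 1349 and 974 cells of Aachen, Bonn and Hamburg and 8687 genes, of which 108 (1.24%) differed between the medulla, taken as the mean of OM and IM, and the cortex (edgeR's quasi-likelihood test with facility as block, Benjamini-Hochberg adjusted p under 0.05). All 10 members entered the fit, and 1 of them was called.

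**Figure D3:**
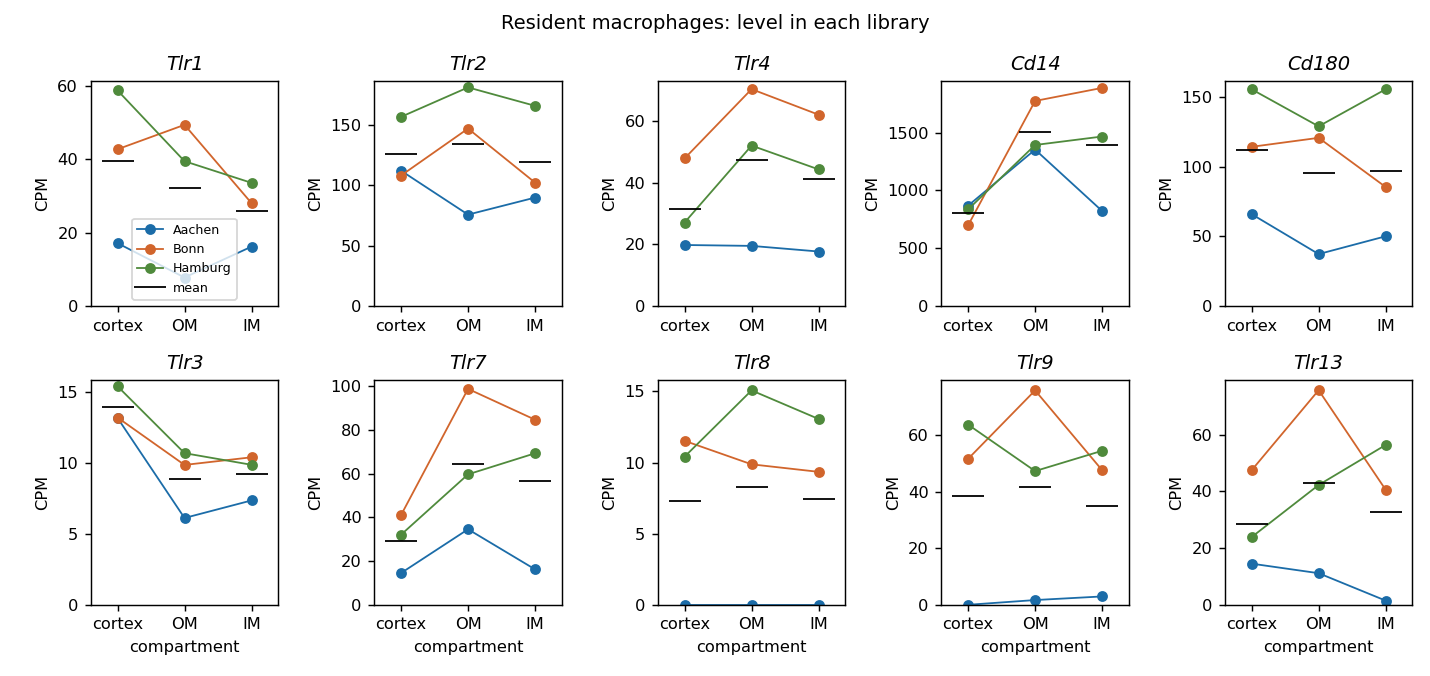
CPM of each gene in resident macrophages of the 9 libraries (y axis, from 0; x axis, compartment; points joined within a facility; black dashes, means of 3 facilities). Tlr7 and Cd14 rise from cortex to the mean of OM and IM in each facility, Tlr3 is lower in every medullary library, and Tlr8 is at 0 in Aachen.

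Tlr7 in resident macrophages was 14.5, 34.6 and 16.2 CPM in cortex, OM and IM of Aachen, 41.0, 98.8 and 84.7 CPM in Bonn, and 32.1, 59.7 and 69.3 CPM in Hamburg. Within each facility both medullary libraries were above the cortex, but the Aachen cortex and IM values rest on 11 UMIs each and differ little. The groups overlapped across facilities because the Aachen values were low. The means were 29.2 ± 13.5 CPM in cortex, 64.3 ± 32.4 in OM and 56.7 ± 35.9 in IM (SD, n = 3). The log2 fold change of medulla against cortex was 1.09 ± 0.19 (SE, adjusted p = 0.0171, edgeR), higher in 3 of 3 facilities. Against the cortex alone, OM differed by 1.16 ± 0.21 (adjusted p = 0.0255, 0.852% of genes called) and IM by 1.01 ± 0.21 (adjusted p = 0.0701, 0.196% of genes called). OM and IM differed by 0.15 ± 0.19, and in that contrast 0.0% of genes were called, with 267 of 8687 at an unadjusted p under 0.05. DESeq2 also called 0, with 61 genes at that p.

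The clusters that make up the resident macrophages differed between compartments. Macrophage_3, which had the highest Tlr7 of these clusters, accounted for 2.35 ± 4.07% of their cortex cells, 36.9 ± 12.1% of their OM cells and 19.9 ± 21.3% of their IM cells. Macrophage_2, which had the lowest Tlr7 of them, accounted for 50.5 ± 28.4, 23.1 ± 7.80 and 29.2 ± 27.3%. In Bonn its share was 83.3% of the cortex cells and 10.4% of the IM cells. Without Macrophage_3, the Tlr7 difference was 0.86 ± 0.20 and was not called (adjusted p = 0.136). That fit keeps the shift in Macrophage_2, whose part in the Tlr7 difference was not tested. In Macrophage_1 alone, Tlr7 was 13.3, 24.8 and 13.7 CPM (Aachen), 39.8, 122 and 78.8 CPM (Bonn) and 29.1, 56.9 and 83.0 CPM (Hamburg) in cortex, OM and IM. The Aachen values rest on 6, 15 and 3 UMIs, and those of Bonn cortex and OM on 4 and 19 UMIs in 24 and 30 cells. The Tlr7 difference in Macrophage_1 was 1.09 ± 0.32 (adjusted p = 0.141). In Macrophage_2, Tlr7 was 11.1, 16.6 and 12.1 CPM in Aachen, 41.5, 66.8 and 34.9 in Bonn and 44.6, 43.3 and 33.1 CPM in Hamburg. The cortex was lowest in Aachen, between OM and IM in Bonn and highest in Hamburg, and the difference was 0.11 ± 0.28 (adjusted p = 0.999). The difference between these clusters was not tested. The Tlr7 call was also lost without the Bonn cortex library (0.93, adjusted p = 0.241), without the Hamburg cortex library (1.16, adjusted p = 0.0575), and after removal of macrophages that carried lymphocyte marker UMIs, as mixed droplets would (0.82, adjusted p = 0.160).

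Cd14 in resident macrophages was 868, 1353 and 823 CPM in cortex, OM and IM of Aachen, 699, 1774 and 1886 CPM in Bonn, and 836, 1393 and 1466 CPM in Hamburg. The Aachen IM library alone lay among the cortex libraries, and the other 5 medullary libraries were above all 3 of them. The means were 801 ± 90.2 CPM in cortex, 1507 ± 232 in OM and 1392 ± 536 in IM. The log2 difference of medulla against cortex was 0.82 ± 0.20 and did not pass the threshold (adjusted p = 0.0679, edgeR). It passed without the Aachen IM library (1.0, adjusted p = 0.00118), the Bonn IM library (0.70, adjusted p = 0.0366) or the Aachen cortex library (1.07, adjusted p = 0.0360), and fell to 0.53 (adjusted p = 0.425) without the Bonn cortex library. That library held 4.45% Macrophage_1 and 83.3% Macrophage_2 cells among its resident macrophages, and mean Cd14 was lower in Macrophage_2 than in Macrophage_1. The part of this make-up in the pooled Cd14 difference was not tested.

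**Figure D4:**
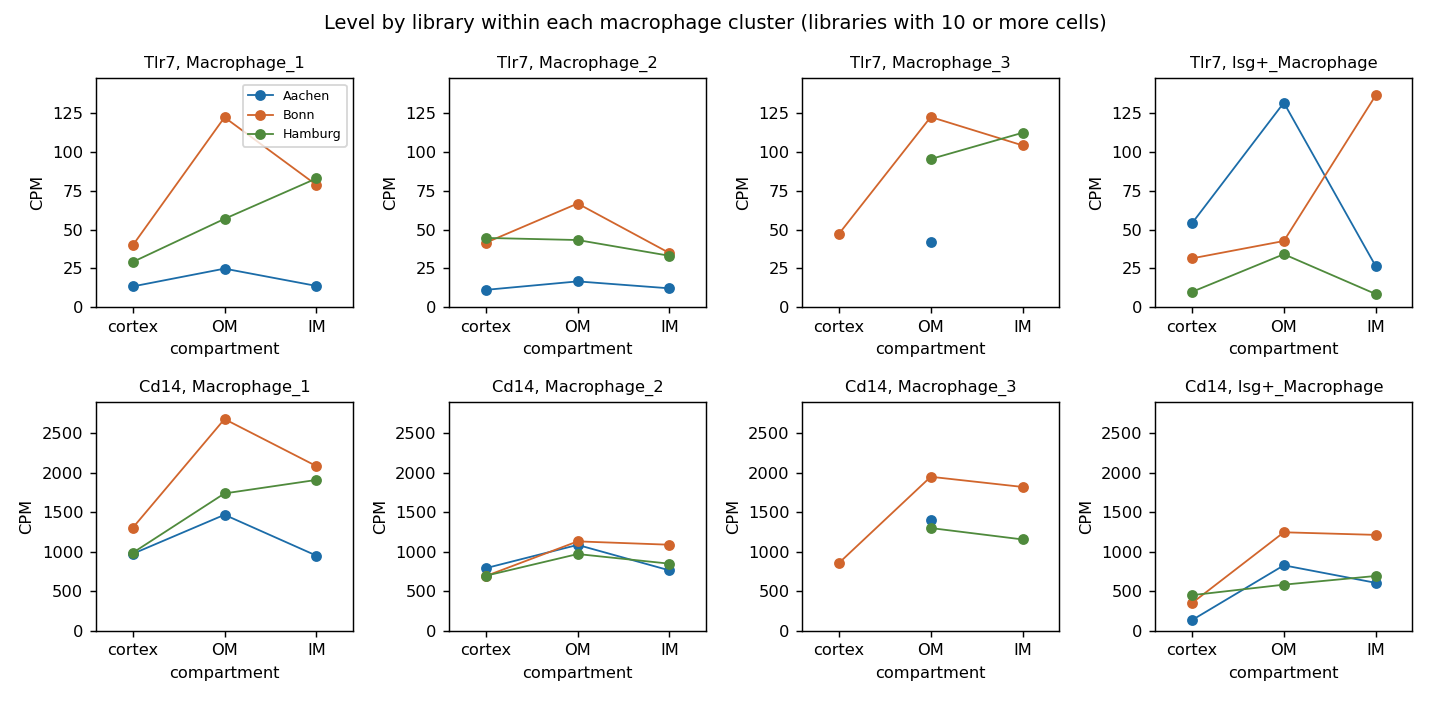
CPM of Tlr7 (top) and Cd14 (bottom) in each of the 4 resident macrophage clusters (x axis, compartment; y axis from 0; points joined within a facility, libraries with 10 or more cells only). Both genes rise from cortex to OM in Macrophage_1 in 3 of 3 facilities, with 24 cortex and 30 OM cells in Bonn. Macrophage_3 has a cortex value in Bonn only.

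Within single clusters, Cd14 was called in Macrophage_1, where 0.516% of 6978 genes were. Its levels were 974, 1469 and 952 CPM in Aachen, 1302, 2681 and 2085 in Bonn and 986, 1739 and 1910 CPM in Hamburg, with the Aachen IM library again at the level of the cortex. The difference was 0.69 ± 0.16 (adjusted p = 0.0380), and 0.80 ± 0.18 for OM alone (adjusted p = 0.0292, 0.473% of genes called). DESeq2 did not call it (0.68, adjusted p = 0.258), nor did the fit without Bonn (0.60, adjusted p = 0.184) or without Hamburg (0.59, adjusted p = 0.635). In Macrophage_2 the difference was 0.45 ± 0.14 (adjusted p = 0.391) and in Isg+_Macrophage 1.41 ± 0.30 (adjusted p = 0.0840), where 0.02 and 0.107% of genes were called. The differences between the clusters were not tested.

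The remaining members did not pass the test in resident macrophages. Tlr4 was 19.8, 19.5 and 17.7 CPM in Aachen, 47.8, 70.2 and 62.0 in Bonn and 27.1, 52.0 and 44.3 CPM in Hamburg, above the cortex in Bonn and Hamburg (0.50 ± 0.17, adjusted p = 0.218). Tlr3 was 13.2, 6.13 and 7.37 CPM in Aachen, 13.2, 9.88 and 10.4 in Bonn and 15.4, 10.7 and 9.89 CPM in Hamburg. All 6 medullary values of Tlr3 were below all 3 cortex values, a separation in either direction that 0.840% of the 8687 genes showed, but it rests on 155 UMIs in all and the difference was not called (-0.54 ± 0.27, adjusted p = 0.526). Tlr1 was lower in the medulla in 3 of 3 facilities (-0.47 ± 0.21, adjusted p = 0.452), with 17.2, 7.80 and 16.2 CPM in Aachen, 42.7, 49.4 and 28.0 in Bonn and 58.8, 39.5 and 33.6 CPM in Hamburg. Of all genes tested, 28.4% were on the same side of the cortex in 3 facilities.

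Cd180 ranged from 37.3 to 156 CPM over the 9 libraries (-0.26 ± 0.15, adjusted p = 0.600), Tlr2 from 75.8 to 181 CPM (-0.01 ± 0.15), Tlr13 from 1.47 to 75.7 CPM (0.32 ± 0.29), Tlr9 from 0 to 75.7 CPM (0.00 ± 0.23) and Tlr8 from 0 to 15.1 CPM (0.04 ± 0.35). For Tlr2, Tlr8, Tlr9 and Tlr13 the direction changed with single libraries left out or with another setting. The median difference of the 5 surface members was -0.01 and that of the 5 endosomal members 0.04, beside 0.01 over all genes tested.

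The tubule and macrophage marker lists moved with the compartment in these macrophage libraries, and the tissue dissociation list had no common direction over facilities. The summed level of 8 kidney tubule markers was 36.3 to 56.8 CPM in the cortex libraries and 84.0 to 795 CPM in the medullary ones. Of its genes, 3 were at 0 in each cortex library and 0 to 3 in the medullary libraries, Aqp2 and Slc34a1 most often. The 10 resident macrophage markers summed to 21252 to 32160 CPM in the cortex and 24346 to 41299 CPM in the medulla, higher in both medullary libraries of each facility. The 10 genes of the response to tissue dissociation summed to 20240 CPM in the Aachen cortex against 13301 and 12774 in its OM and IM, to 1895 in the Bonn cortex against 3313 and 9073, and to 38699 in the Hamburg cortex against 34363 and 38531. The part of these lists in the Tlr7 and Cd14 values was not tested.

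In the other cell classes, Cd14 passed the test in monocytes for IM against cortex and no member passed it for the medulla as a whole. In monocytes, Cd14 was 220, 232 and 166 CPM in cortex, OM and IM of Aachen, 92.0, 132 and 192 in Bonn and 438, 674 and 820 CPM in Hamburg. The level was above the cortex in both medullary libraries of Bonn and Hamburg and below it in the Aachen IM, with 89 Aachen monocytes in all. The difference of IM was 0.82 ± 0.20 (adjusted p = 0.0290, 0.249% of 6029 genes called), and that of the medulla 0.67 ± 0.18 (adjusted p = 0.0865, 0.332% of genes called). The IM call was not made by DESeq2 (0.80) and was lost without Aachen (0.97, adjusted p = 0.0854), Bonn (0.66, adjusted p = 0.842) or Hamburg (0.73, adjusted p = 1.0). Tlr7 in monocytes differed by -0.01 ± 0.24, with 86.5, 145 and 101 CPM in Bonn and 116, 90.1 and 72.5 CPM in Hamburg.

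**Figure D5:**
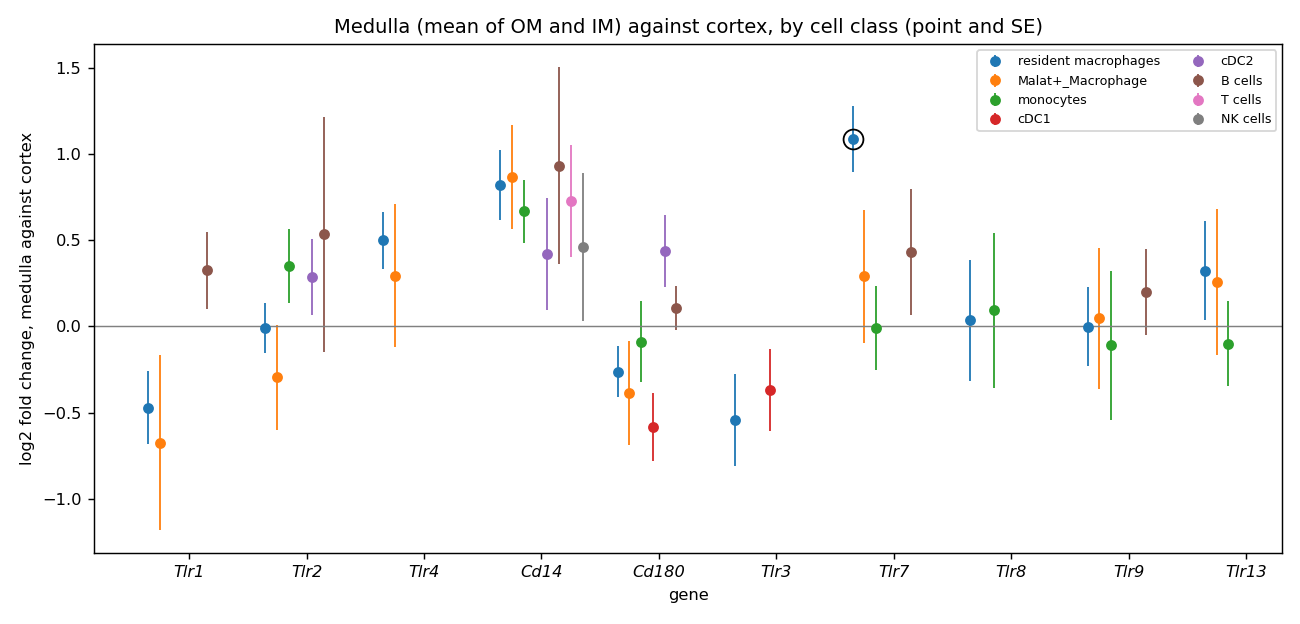
Log2 fold change of medulla against cortex (y axis) with its SE for each gene (x axis) in 8 cell classes (colours); genes below the count filter of a class have no point, and a ring marks an adjusted p under 0.05. Tlr7 in resident macrophages is the only ringed point, and the Cd14 points lie above 0 in all 7 classes in which it was tested. The classes share libraries, and the Bonn ratio of medulla to cortex for Cd14 was below 1 in cDC2 (0.977), B cells (0.927) and T cells (0.756).

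Few members passed the count filter in the other classes, with 8 in Malat+_Macrophage, 2 in cDC1, 3 in cDC2, 6 in B cells and 1 each in T cells and NK cells. Of these, 0 were called for medulla against cortex, where 0.0587, 0.0634, 0.304, 0.0898, 0.0335 and 0.0299% of the genes tested were. In ILC2 no member could be tested (0.359% of genes called). In these fits by edgeR, 1 member in Malat+_Macrophage (Cd14), cDC1 (Cd180), cDC2 (Cd180) and T cells (Cd14) had an unadjusted p under 0.05, and DESeq2 called none. The Cd14 difference was above 0 in each class tested, with 0.87 ± 0.30 in Malat+_Macrophage, 0.42 ± 0.33 in cDC2, 0.93 ± 0.57 in B cells, 0.73 ± 0.32 in T cells and 0.46 ± 0.43 in NK cells. In T cells its level was 35.6, 116 and 61.0 CPM in cortex, OM and IM of Aachen and at most 5.56 CPM in any library of Bonn and Hamburg, so the T cell difference lies in Aachen, where Cd14 in T cells was also highest relative to macrophages. The same held for B cells and cDC2. The ratio of medulla to cortex was 11.6 in Aachen, 0.927 in Bonn and 1.11 in Hamburg for B cells, whose Aachen cortex value rests on 1 UMI. For cDC2 it was 3.35, 0.977 and 1.14. In Malat+_Macrophage it was 1.26, 2.50 and 1.44, above 1 in 3 of 3 facilities. Cd180 in cDC1 was 165, 66.3 and 114 CPM in Aachen, 237 and 173 CPM in cortex and IM of Bonn, and 287, 184 and 272 CPM in Hamburg (-0.58 ± 0.20, adjusted p = 0.957). Tlr3 in cDC1 was 46.4, 88.5 and 57.2 CPM in Aachen, 205 and 197 in Bonn and 187, 117 and 114 CPM in Hamburg, with no common direction (-0.37 ± 0.24). The Bonn OM library had under 10 cDC1 and was left out of that fit. Neutrophils and Macrophage_3 had all 3 compartments in 1 facility only and were not tested.

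The effect in resident macrophages minus that in B cells and in cDC2 was tested as an interaction. All 10 members entered both fits, although only 6 had passed the count filter in B cells and 3 in cDC2. For the other members the comparison rests on few counts in that class, so it cannot tell the effects apart. No member was called (0.129% of 10099 genes called for B cells and 0.0221% of 9064 for cDC2). The unadjusted p was under 0.05 for Tlr1 against B cells (-0.77 ± 0.32, adjusted p = 0.837) and for Tlr7 (2.80 ± 1.09, adjusted p = 0.775) and Cd180 (-0.70 ± 0.26, adjusted p = 0.749) against cDC2. Over all genes, 526 of 10099 had such a p against B cells and 466 of 9064 against cDC2. Tlr7 had 11.9 UMIs in all cDC2 libraries together and at most 13.7 CPM in any of them. Its compartment effect in cDC2 is therefore barely measured, and the value of 2.80 cannot be read as a difference of effects.

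The other genes of the pathway were counted by list in the same resident macrophage fit. Of 7 chaperones and co-receptor partners tested, 16 adaptors and proximal kinases, 11 transcription factors and 14 inhibitors, none was called, with 1, 0, 1 and 2 genes at an unadjusted p under 0.05. Of all 8687 genes in the fit, 878 had such a p. The median log2 differences of the 4 lists were -0.05, 0.04, -0.08 and 0.02. Unc93b1, the chaperone of the endosomal receptors, was 733, 486 and 709 CPM in cortex, OM and IM of Aachen, 1266, 1148 and 862 in Bonn and 1349, 1128 and 1137 CPM in Hamburg, lower in each medullary library than in the cortex of its facility (-0.29 ± 0.13, adjusted p = 0.452). Irf7, a transcription factor that TLR7 and TLR9 activate, differed by -0.69 ± 0.22 (adjusted p = 0.199) and Socs3, an inhibitor of cytokine signalling, by 1.49 ± 0.52 (adjusted p = 0.247). Among adaptors and kinases, Tab2 had the smallest p (0.22 ± 0.14, adjusted p = 0.672).

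Of 15 induced targets tested, 1 was called and it was lower in the medulla, beside 108 of all 8687 genes called in either direction (1.24%). Ifnb1, which codes for interferon beta, was 63.4, 6.13 and 16.2 CPM in cortex, OM and IM of Aachen, 0, 0 and 1.60 in Bonn and 59.6, 14.0 and 9.09 CPM in Hamburg. In Aachen and Hamburg the cortex library stood above both medullary libraries, and Bonn was at or near 0 throughout. Ifnb1 fell by 2.19 ± 0.42 on the log2 scale (adjusted p = 0.0212, edgeR). The call was lost with DESeq2 (-1.56) and without Aachen (-1.91, adjusted p = 0.0763) or Hamburg (-2.05, adjusted p = 0.381). The median of the 15 targets was -0.14. Of the other Toll-like receptor genes, Tlr12 alone passed the count filter (-0.44 ± 0.24, adjusted p = 0.588).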

How the data were processed

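The members and the gene lists were chosen with earlier results of these data known. The authors aligned the 10x reads with Cell Ranger to mm10, clustered cells in Seurat after filters on genes per cell and mitochondrial share, and deposited a raw count table of cells by genes with each cell's cluster, compartment and facility. Every Aachen and Bonn value was whole, but only 0.118% of the nonzero Hamburg values were, so Hamburg holds estimated counts as deposited by the authors; the step that made them is not given in the sources used here, and sums were rounded for the fits. Counts were summed per library and class (10 or more cells) and fitted with edgeR 4.0.16 (filterByExpr, TMM, quasi-likelihood test, facility as block, Benjamini-Hochberg 0.05 over all genes) in R 4.3.3. Same-facility libraries deviated together from the compartment means (r 0.835 to 0.931 for 9 pairs, over 5141 genes), so facility pairs the libraries. The other pairs had r from -0.81 to 0.288, but subtracting a mean over the same 3 facilities pushes these values below 0. DESeq2 1.42.0, fits without the block or the filter, thinned cells and libraries left out in turn were alternatives. The sources used here name no removal of doublets and no doublet caller was run, so removing macrophages with 2 or more UMIs of lymphocyte markers was the 1 check on mixed cells. Beside the members, the genes with the smallest p of each pathway list were named. Tested on simulated counts of the resident macrophage comparison (8501 genes), the fit found 68% of 2-fold changes and 97% of 4-fold ones, beside 14 false calls. Python 3.11.15 with pandas 2.3.3 and scipy 1.17.1 computed shares and intervals (exact Clopper-Pearson, 95%). A count of 0 was read as an upper limit of 3 counts.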

Additional observations from a re-analysis of the deposited data

Results flagged for a closer look

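Tlr1 was the 1 result set apart for a closer look, because its medulla-to-cortex change ran in opposite directions in 2 cell classes. In resident macrophages the mean of OM and IM was lower than the cortex in 3 of 3 facilities (-0.47 on the log2 scale), and in B cells it was higher in 3 of 3 (0.33). In macrophages the Bonn OM alone was above its cortex (49.4 against 42.7 CPM). B cells held 4.44, 8.20 and 8.87 CPM in cortex, OM and IM of Aachen, 25.4, 28.8 and 30.1 in Bonn and 15.7, 24.7 and 18.7 CPM in Hamburg. The Aachen B cell values rest on 1, 3 and 3 UMIs. All members were scanned over the classes tested, and the share of all genes with such a pattern was not computed. The differences within each facility were small beside those between facilities. The interaction test of macrophages against B cells did not pass the threshold (-0.77 ± 0.32, adjusted p = 0.837, edgeR).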

How the results depend on the processing

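With a single call behind most counts, the number of members called moved with many settings. In resident macrophages, medulla against cortex, the 1 call became 0 without the replicate block, with each cell thinned to 500 UMIs, without Macrophage_3 and without cells carrying lymphocyte marker UMIs, and 2 without the filter on low counts and without Isg+_Macrophage. With 1 library or facility left out it ranged from 0 to 2, as did the counts for OM (1) and IM (0) against cortex. The call for Cd14 in monocytes (IM) and those in Macrophage_1 (medulla and OM) became 0 with DESeq2 and without the block. With a facility left out, the counts were 0 to 0 for monocytes, 0 to 1 for Macrophage_1 in the medulla, 0 to 0 for Macrophage_1 in the OM and 0 to 1 for Isg+_Macrophage. The cause of these shifts was not tested. Tlr7 stayed positive in all settings run in resident macrophages, at 0.82 to 1.19, with the adjusted p from 8.54e-07 to 1.0. Without the block, its difference was 1.02 (adjusted p = 1.0).

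Directions that turned in resident macrophages were those of Tlr2 (0.06 without Macrophage_3, and -0.15 to 0.15 with libraries left out), Tlr8 (-0.11 with Malat+_Macrophage, and -0.23 to 0.39), Tlr9 (0.03 with DESeq2, 0.48 thinned, 0.04 without Macrophage_3, and -0.32 to 0.31), Tlr13 (-0.01 to 0.61), Tab2 (-0.01 to 0.34) and, within Macrophage_2, Tlr7 (-0.09 to 0.24). The mean share of cells with a UMI depended on the thinning depth: for Cd14 in resident macrophages 28.1% at 300 and 59.5% at 1000 UMIs against 42.4% at 500, for Tlr7 5.2% at 1000, for Tlr3 in cDC1 14.5% at 1000, and for Cd180 in B cells 2.70% at 300 and 8.88% at 1000. Over all genes, DESeq2 called 48 in resident macrophages against 108 for edgeR. The alternatives for single clusters, for OM or IM alone and for pathway genes were chosen after seeing the data. The cluster with the highest mean changed for Tlr1 with the mean of per-cell CPM and without Hamburg, for Tlr4 without Hamburg, for Tlr2 and Tlr13 without Aachen, for Cd180 without Bonn, and for Tlr9 without Bonn or Hamburg. Cell number limits neutrophils and pDC, with 25 neutrophils and 9 pDC in Aachen.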
